A study of Mus musculus with 14 samples.

Results

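The regions described here are stretches of chromatin that were accessible in 12N1G, N2N1G and 1399P1 and in none of the other 4 lines of a panel of 7 mouse small cell lung cancer lines. They were selected on the peak lists themselves. Peak intervals of all 14 libraries on chromosomes 1 to 19 and X were merged where they overlapped by at least 1 bp, which gave 177577 regions. A region was called open in a line if both of its libraries had a peak there and closed if neither had. Of these regions, 1399 were open in 12N1G, N2N1G and 1399P1 and closed in 1373M1, 1398M1, 1399M4 and 1398P2, or 0.788% of all regions. They made up 3.66% of the 38191 regions open in the 3 lines.

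Of the open lines, 12N1G and N2N1G have the genotype RPR2 and lymph node metastasis as their tissue of origin, whereas 1399P1 has the genotype RPR2;Nfibf/f and comes from a lung tumor. Of the closed lines, 1373M1 is RPR2 and stems from a liver metastasis, 1398M1 and 1399M4 are RPR2;Nfibf/f and stem from liver metastases, and 1398P2 is RPR2;Nfibf/f and stems from a lung tumor. All 7 lines share RPR2, a name that usually means deletion of Rb1, Trp53 and the Rb1 relative Rbl2, and Nfibf/f denotes floxed Nfib. The labels give neither the promoter behind the recombinase nor the age of the mice. They also leave unsaid if 12N1G and N2N1G are independent lines. Nor do they say if paired libraries are separate cultures, so the spread within a line may be technical. Genotype and tissue thus both differ between the lymph node lines and 1399P1 and cannot be told apart. Across the 38191 regions open in the 3 lines, the rank correlation of peak strength between libraries of 12N1G and N2N1G was 0.929 to 0.941, close to the 0.943 to 0.950 between libraries of the same line.

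Gene ends of most neuroendocrine markers were accessible in every line. The list of 20 neuroendocrine and cancer state genes also holds Pou2f3 and Yap1, and Pou2f3 is in the tuft list as well. Of the 20, 14 had a peak within 1 kb of a gene end in all 14 libraries, among them Insm1, Chga, Syp and Nkx2-1. Scg3 and Ddc had none in any library. Per library, 1 to 5 of 12 hepatocyte genes had such a peak, with Apoa1 open in all 14 libraries and Alb and Afp in none. Of 12 lymphocyte and myeloid genes, 3 to 6 had one, with Spi1, Cd4 and Cd79a open in all 14 and Ptprc and Cd68 among those in none. Of 12 fibroblast and endothelial genes, 1 to 5 had one, with Kdr open in all 14 and Pecam1, Pdgfra and Acta2 in none. The range was 3 to 8 of 12 for lung epithelium genes and 0 to 7 of 8 for tuft genes. The libraries held 64975 to 84199 peaks, apart from library 2 of 1398P2, which held 33519 and had the lowest local background, a measure of depth.

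ATAC-seq maps accessible DNA with a transposase that inserts sequencing adapters where nucleosomes do not block it. Accessible sites at gene starts mark promoters and tend to be shared between related cells, whereas sites within and between genes are often enhancers, which differ between cell states and carry clusters of transcription factor motifs. Nuclear factor I proteins, encoded by Nfia, Nfib, Nfic and Nfix, bind the palindrome of TTGGC, any 5 bases and GCCAA, or a single TTGGC element, and NFIB is known in this cancer for opening distal chromatin in metastases.

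Few of the regions reached a promoter, and those that did give the sequences that can be shown. Of 32619 RefSeq promoter windows (GRCm38.p6, 250 bases before to 50 after an annotated start), 40 windows of 35 genes overlapped a region open in the 3 lines alone, and 18 of these genes are protein-coding. The following windows are those covered by the 20 highest-ranked regions at ends of protein-coding genes. Where a gene had 2 such windows, the one whose annotated start lay nearest the median summit is shown. The window left out held TTGGC 0 times at Dcaf12l1 and 2 times at Egfem1. Some other protein-coding genes had a window over a region of like rank that is not among those 20, and these are not shown. The window of Rxrg, a retinoid X receptor gene, was added after its sequence was seen because it holds the TTGGC element 5 times. All are printed 5′ to 3′ on the strand of the gene, and capitals mark each TTGGC or its complement GCCAA, which the Nap1l5 and Aldh1l1 windows lack.
Nap1l5: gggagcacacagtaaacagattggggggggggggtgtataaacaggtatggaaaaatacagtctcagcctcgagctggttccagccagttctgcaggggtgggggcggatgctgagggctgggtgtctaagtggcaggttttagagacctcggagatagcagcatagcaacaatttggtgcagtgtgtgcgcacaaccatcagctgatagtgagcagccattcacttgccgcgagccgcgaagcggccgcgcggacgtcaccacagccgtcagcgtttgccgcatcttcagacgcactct
Aox4: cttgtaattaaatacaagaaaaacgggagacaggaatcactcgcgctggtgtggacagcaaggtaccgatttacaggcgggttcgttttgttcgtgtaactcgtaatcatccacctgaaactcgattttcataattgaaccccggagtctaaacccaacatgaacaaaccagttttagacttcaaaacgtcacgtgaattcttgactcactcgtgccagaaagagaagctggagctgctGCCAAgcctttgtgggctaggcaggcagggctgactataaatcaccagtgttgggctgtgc
Aldh1l1: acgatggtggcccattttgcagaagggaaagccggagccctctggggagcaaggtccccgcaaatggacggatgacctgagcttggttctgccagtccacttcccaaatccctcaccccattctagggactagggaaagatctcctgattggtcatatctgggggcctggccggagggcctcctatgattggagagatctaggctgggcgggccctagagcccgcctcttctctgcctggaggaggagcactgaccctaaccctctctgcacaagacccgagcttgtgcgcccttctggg
Dcaf12l1: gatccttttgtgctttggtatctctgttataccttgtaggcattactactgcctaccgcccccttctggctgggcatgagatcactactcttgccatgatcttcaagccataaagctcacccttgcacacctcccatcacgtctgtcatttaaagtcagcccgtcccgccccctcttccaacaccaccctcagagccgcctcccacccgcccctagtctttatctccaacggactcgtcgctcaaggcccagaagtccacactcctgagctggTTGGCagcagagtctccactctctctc
Egfem1: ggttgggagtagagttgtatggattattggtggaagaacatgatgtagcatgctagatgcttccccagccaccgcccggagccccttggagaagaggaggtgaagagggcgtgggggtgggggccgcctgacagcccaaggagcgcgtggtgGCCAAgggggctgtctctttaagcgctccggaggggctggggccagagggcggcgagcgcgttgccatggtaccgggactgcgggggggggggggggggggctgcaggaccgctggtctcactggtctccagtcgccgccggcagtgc
Rxrg: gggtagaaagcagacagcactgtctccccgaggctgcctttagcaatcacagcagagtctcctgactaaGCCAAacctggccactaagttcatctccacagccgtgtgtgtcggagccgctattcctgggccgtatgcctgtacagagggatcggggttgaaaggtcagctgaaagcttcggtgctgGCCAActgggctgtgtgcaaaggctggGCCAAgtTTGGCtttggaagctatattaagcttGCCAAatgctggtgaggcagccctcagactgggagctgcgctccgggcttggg
The windows lie at chr6:58907077-58907376 (minus strand, Nap1l5, an imprinted gene for a histone chaperone relative), chr1:58210147-58210446 (plus strand, Aox4, an aldehyde oxidase), chr6:90550543-90550842 (plus strand, Aldh1l1, a folate enzyme), chrX:44790112-44790411 (minus strand, Dcaf12l1), chr3:29082281-29082580 (plus strand, Egfem1) and chr1:167618015-167618314 (plus strand, Rxrg). Counted from the annotated start in the direction of the gene, the median summit lay at base -7 in Nap1l5, -14 in Aldh1l1, -37 in Rxrg, 84 in Aox4, 80 in Dcaf12l1 and 70 in Egfem1. The Nap1l5 window lies inside the longer gene Herc3.

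Over the 40 windows, TTGGC on either strand was found in 30 (75%), beside 50.2% of the 14501 windows that overlapped any region open in the 3 lines and 46.9% of all windows. The AP-1 element TGANTCA, bound by FOS and JUN dimers, was in 6 (15%), beside 4.13% and 7.85%. The GATA element AGATAA was in 6 (15%), beside 5.17% and 11.2%. The E-box CAGCTG, bound by basic helix-loop-helix factors, was in 9 (22.5%), beside 15.3% and 16.4%, and the E-box CAGATG, bound by NEUROD1, in 6 (15%), beside 11.1% and 17.1%. At the other end, the ETS element (CCGG followed by AAGT) was in none, beside 7.66% and 3.91%, and the CTCF core (CC, any 3 bases, AG, any 2 bases, GGC) in 2 (5%), beside 13.4% and 8.67%. The full palindrome was in none, beside 0.0414% and 0.0368%. The forkhead element TGTTTAC was in 5% of the 40 windows (2.39% and 3.67%), NKX2 CAAGTG in 12.5% (10.8% and 13.5%), the POU octamer (ATGC followed by AAAT) in 2.5% (1.29% and 1.75%) and RUNX AACCACA in 2.5% (3.08% and 5.29%). TEAD ACATTCC (2.34% and 3.87%) and SOX ACAATGG (1.90% and 3.68%) were in none. All elements were searched on both strands. TTGGC is part of the full palindrome. These matches are descriptions of 40 windows, some of which overlap each other. The windows were less rich in G and C, with a median of 52.3% against 62% in windows with any region open in the 3 lines, and the part of base composition in these shares was not tested.

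By count of regions, 1399P1 was the RPR2;Nfibf/f line that most often joined the lymph node lines. With 12N1G and N2N1G open, 1446 regions were also open in 1373M1 alone, 1399 in 1399P1 alone, 233 in 1398M1 alone, 114 in 1399M4 alone and 3 in 1398P2 alone. A further 1118 regions were open in the 3 RPR2 lines and 1399P1, and 3576 in 12N1G and N2N1G alone. Only 44 regions were open in 12N1G and 1399P1 and 53 in N2N1G and 1399P1 with all other lines closed. The lymph node lines resemble each other almost as closely as libraries of the same line, so these low counts say little about 1399P1. A baseline of regions that differ between these lines was not taken. For comparison, 866 regions were open in 1399P1 and 1399M4 alone, lines whose names share a number that the labels do not explain, and 1955 in 1399P1 alone. The few peaks of the second 1398P2 library make a region less likely to be called open in that line, so the count of 3 is not comparable with the others. Open regions numbered 66396 in 1399P1, the most of any line, 60310 in 1399M4, 58459 in 1398M1 and 28947 in 1398P2. The counts by partner line were not adjusted for this, nor repeated with equal peak numbers.

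**Figure D1:**
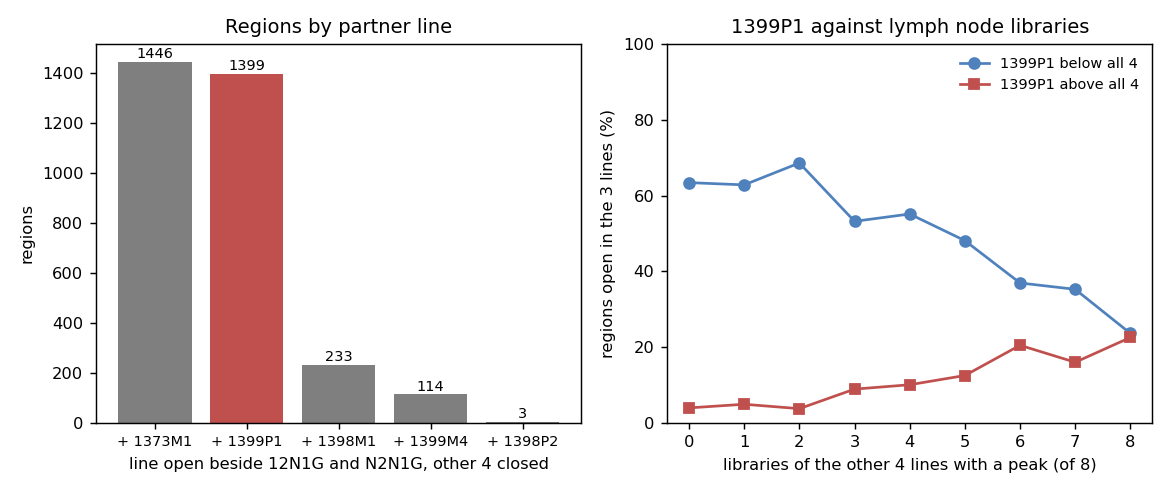
Left, number of regions open in 12N1G, N2N1G and 1 further line and closed in the other 4, by that line. Right, share of regions open in 12N1G, N2N1G and 1399P1 in which both 1399P1 libraries lay below (circles) or above (squares) all 4 lymph node libraries in centred peak strength, by how many of the 8 other libraries had a peak. The 1399 regions with 1399P1 stand beside 1446 with 1373M1, and the share below falls from 63.4% with no other library to 23.6% with all 8.

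The edge of the pattern was populated on both sides. Another 613 regions had peaks in all 6 open libraries and in a single one of the other 8, most often in library 1 of 1398P2 (171) or library 1 of 1373M1 (164), and only once in library 2 of 1398P2. In those single libraries the median peak was 8.10 to 17.8 times the library floor. The floor is the lowest local background of a library, a measure of its depth in fragments per bp. A further 1194 regions had peaks in 5 of the 6 libraries and in none of the 8, and the missing library was one of 1399P1 in 438 and 526 of them. Inside the pattern, the regions with the lowest mean rank of fold enrichment lay near Utp25, inside Macrod1 and near Tomm20. Their summit pileups were 15 to 29 fragments in all 6 libraries. They rank low against a local background of 5.35 to 13.5 times the floor, not for a low pileup. The weakest callable peak at the floor was 5.00 to 7.89 times the floor in the 8 closed libraries, and 206 of the 1399 regions had at least 1 of their 6 open libraries below 7.89, whereas none had its median below. These limits hold for a floor-level background and are higher where the background is raised.

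Membership depended on how many peaks each list held. When every library was cut to its 33519 strongest peaks, 220 regions fitted the pattern and 72 of the 1399 were among them. With a -log10 q of at least 3 in every library, 1252 fitted, including 1142 of the 1399.

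The shared regions were weaker in 1399P1 than in the lymph node lines. The median summit pileup, the number of fragments that MACS2 stacked over the highest point of the region, was 19 and 21 in the libraries of 12N1G, 19 and 22 in those of N2N1G, and 13 and 12 in those of 1399P1. Both medians of 1399P1 were below all 4 of the lymph node lines. Relative to the floor these medians were 23.7 and 30.3 times in 12N1G, 30.05 and 30.4 times in N2N1G, and 16.2 and 13.4 times in 1399P1. Over all regions open in the 3 lines, the medians were 37.3 to 48.4 times in the lymph node lines and 42.3 and 31.4 times in 1399P1, so the lines overlapped on this scale.

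**Figure D2:**
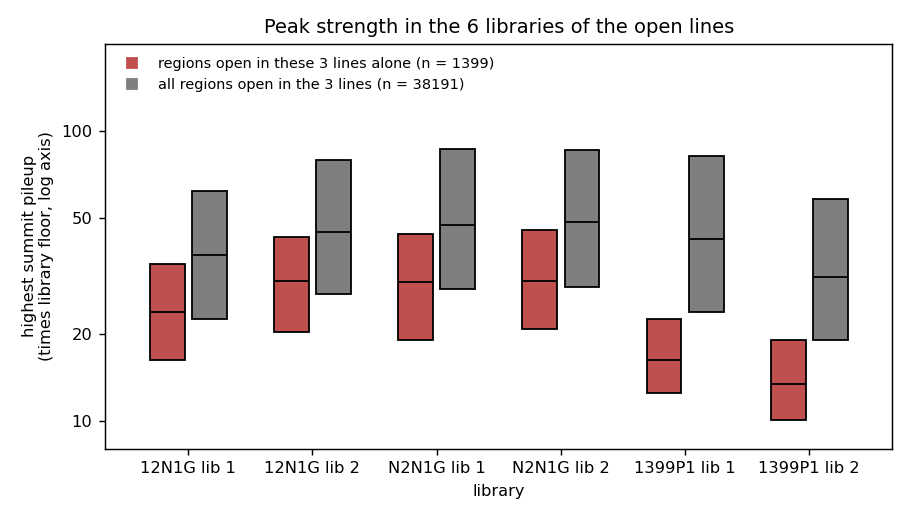
Highest summit pileup per region in units of the library floor (log axis) in each library of the 3 open lines; boxes span the quartiles and the line marks the median. Regions open in these 3 lines alone have medians of 23.7 to 30.4 times the floor in 12N1G and N2N1G and of 16.2 and 13.4 in 1399P1, while all 38191 regions open in the 3 lines have more even medians.

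Region by region, log2 pileup over floor was centred on the median of the 17795 regions open in all 7 lines. On this scale the medians of the 1399 regions were -1.42 to -1.28 in the lymph node libraries and -2.39 and -2.14 in 1399P1, and those of all regions open in the 3 lines were -0.77 to -0.62 in the lymph node libraries and -1 and -0.92 in 1399P1, a smaller step in the same direction. Both 1399P1 libraries lay below all 4 lymph node libraries in 887 of the 1399 regions (63.4%), beside 35.7% of all 38191 regions open in the 3 lines, and above all 4 in 55 (3.93%), beside 17.4%. The median difference of 1399P1 from the lymph node lines was -0.85 on the log2 scale, with quartiles of -1.41 and -0.35, beside -0.15 over all regions open in the 3 lines. With ranks of fold enrichment in place of pileups, 681 regions (48.7%) were below, beside 20.6%. No test was applied, since 2 libraries of 1 line against 4 of 2 lines cannot give an exact p below 0.067. The rule required a called peak in every library of the 3 open lines and none in the other lines. A call depends on peak height over background, so these shares are not independent of the rule.

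The lower strength was not a property of these regions alone. Regions open in the 3 lines with a peak in 2 of the other 8 libraries were below in 68.6%, those with 5 in 48.1% and those with all 8 in 23.6%. In regions open only in the 3 RPR2 lines, 1373M1 lay below the lymph node libraries in 33.7% and above in 21.9%, with a median difference of -0.17. These values were near those of all 37428 regions open in the 3 RPR2 lines, with 29.7% below, 22.4% above and a median of -0.07. The difference between the RPR2 set and the 1399 regions was not tested, and 1373M1 and 1399P1 are each a single line. Within the lymph node pair, 12N1G lay above N2N1G in 444 of the 1399 regions (31.7%) and below in 138 (9.86%), with a median difference of 0.13. Over all regions open in the 3 lines these shares were 23.6% and 16.2%, with a median of 0.04.

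The order of the regions by strength was less alike between the lymph node lines and 1399P1 than within the lymph node lines. Between the 2 libraries of a line, the Spearman correlation across the 1399 regions was 0.873 in 12N1G, 0.862 in N2N1G and 0.685 in 1399P1. It was 0.820 to 0.847 between libraries of 12N1G and N2N1G and 0.255 to 0.345 between a lymph node library and a 1399P1 library. Over all regions open in the 3 lines the last range was 0.681 to 0.700, and the 1399P1 pair had 0.948. The part of the lower agreement within 1399P1 in the low values between lines was not tested. The points of each correlation share 2 libraries, and peaks in the 1399 regions span a narrower range of heights. The positions were close: the 6 summits of a region spanned a median of 95 bp, and 732 regions (52.3%) had all 6 within 100 bp, beside 58.2% of all regions open in the 3 lines. The median peak was 372 bp wide in 1399P1 and 477 bp in the lymph node lines, against 609.5 and 605.5 bp over all regions open in the 3 lines.

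**Figure D3:**
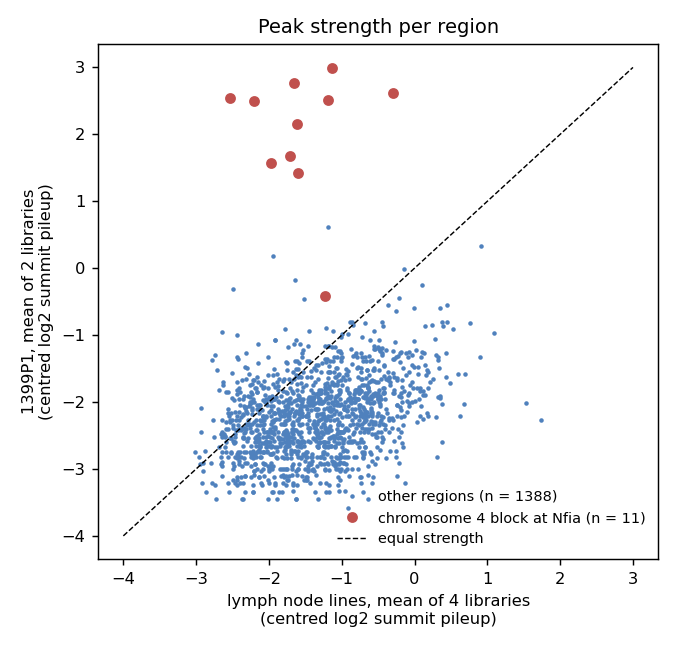
Each point is a region open in 12N1G, N2N1G and 1399P1 alone: horizontal axis, mean centred log2 summit pileup of the 4 lymph node libraries; vertical axis, mean of the 2 libraries of 1399P1; the dashed line marks equal strength. Of the 1399 regions, 1211 lie below the line, and 11 regions of a block on chromosome 4 (large points) all lie above it.

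The regions were distal. Only 53 of 1399 (3.79%) lay within 1 kb of an end of a protein-coding gene, against 32.6% of all regions open in the 3 lines and 55.2% of those open in all 7. A total of 721 (51.5%) overlapped a gene body, and 244 (17.4%) lay over 100 kb from any. The median distance to a gene end was 38274 bp, beside 9269 bp over all regions open in the 3 lines. Other patterns of limited sharing were placed alike: regions open only in the 3 RPR2 lines had 4.56% at a gene end and 16.9% over 100 kb from a gene, and regions open only in 12N1G and N2N1G had 3.94% and 21.9%. The annotation used gives gene extents without exons, so exons and introns are not told apart. Chromosome 1 held 130 of the regions (9.29%), beside 6.42% of all regions open in the 3 lines, and chromosome X held 19 (1.36%), beside 2.07%.

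**Figure D4:**
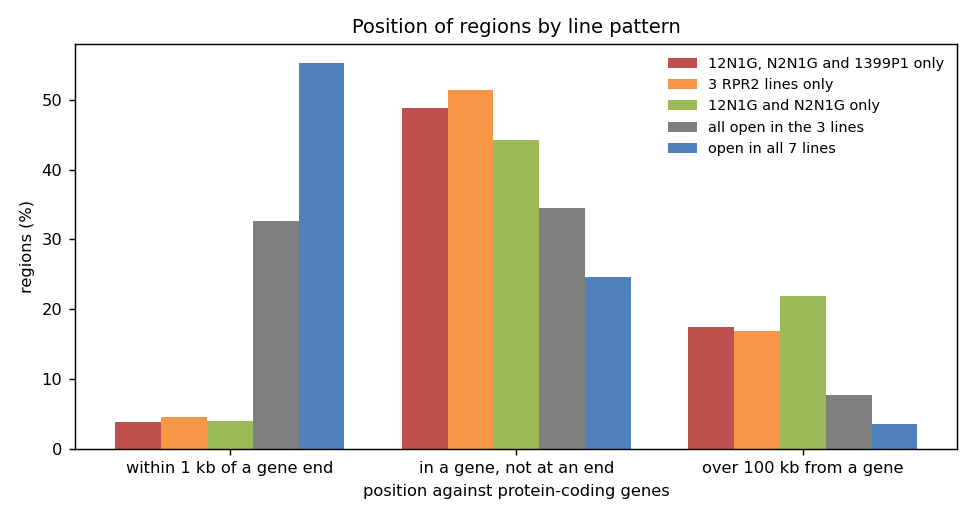
Share of regions within 1 kb of an end of a protein-coding gene, inside a gene but not at an end, and over 100 kb from any gene, for 5 line patterns. Regions open in 12N1G, N2N1G and 1399P1 alone (3.79% at a gene end) resemble the other patterns of limited sharing and differ from all regions open in the 3 lines (32.6%).

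At the level of genes, 838 of 21627 protein-coding genes (3.87%) had at least 1 of the regions inside them or within 10 kb, 75 had 2 or more and 577 regions had no gene that near. Long genes offer more room, and of 989 genes of at least 200 kb, 237 (24%) had 1 or more. The genes with the most were Nfia with 6, Ankfn1 with 5, and Adam12 and Esrrg with 4 each. Another 13 genes had 3, among them Cacna1d, Ctif, Dpp6, Mcc, Pde10a, Prkag2, Prkca, Shroom3, Smg6 and Tmem132b. They include a neuronal calcium channel (Cacna1d), a potassium channel subunit (Dpp6), a striatal phosphodiesterase (Pde10a), protein kinase C alpha (Prkca) and an actin regulator of epithelial shape (Shroom3).

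These genes with 3 regions differed in how evenly the lines shared them. At Cacna1d, Pde10a and Tmem132b, both 1399P1 libraries lay below all 4 lymph node libraries in centred strength at all 3 regions. The Pde10a region at 8905569 to 8906051 on chromosome 17, for example, had pileups of 35, 30, 23 and 34 in the lymph node libraries and 11 and 8 in 1399P1. At Prkca, which had 33, 41, 38 and 34 against 27 and 26 at its strongest region, the groups overlapped at the other 2, and at Prkag2 they overlapped at 1. Of the genes named here, Ctif had a region at which 1399P1 was above, with 9, 10, 9 and 14 against 19 and 19.

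At Ankfn1, a gene for an ankyrin and fibronectin domain protein (chromosome 11, 89390092 to 89777901), most regions with a peak were found in these 3 lines. It was named because it held many of the selected regions, which the rule makes open in these lines and closed elsewhere. Counts per line here and at the genes below include the selected regions. The gene and 10 kb around it had a mean of 9.5 regions with a peak in 12N1G, 8.5 in N2N1G and 12.5 in 1399P1, against 0 in 1373M1, 0 in 1398M1, 1.5 in 1399M4 and 1 in 1398P2. All 5 regions open in the 3 lines there were closed in the other 4. The strongest, at 89670928 to 89671784, had pileups of 45, 48, 51 and 50 in the lymph node libraries and 24 in both 1399P1 libraries, whereas the one at 89723922 to 89724825 had 13, 5, 5 and 14 in the lymph node libraries and 29 and 33 in 1399P1. The order of the lines thus turned within 1 gene. With a -log10 q of at least 3 in every library, 3 regions at Ankfn1 fitted the pattern.

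Esrrg, which encodes an orphan nuclear receptor of oxidative metabolism (chromosome 1, 187608510 to 188214885), had 19.5, 18 and 13 regions in 12N1G, N2N1G and 1399P1 and 1 to 4 in the other lines. Of its 6 regions open in the 3 lines, 4 were closed in the rest. The region at 187975563 to 187976314 had pileups of 23, 33, 36 and 38 in the lymph node libraries and 36 and 32 in 1399P1, which overlap. In centred strength the groups overlapped at 2 of the 4 regions, and at the other 2 both 1399P1 libraries were below, as at 187709119 to 187709942 with 14, 16, 16 and 15 against 11 and 11. Cacna1d differed from these, since 1399M4 also had many regions there: 18, 18 and 17.5 in the open lines and 17 in 1399M4, against 6.5 to 7 in the other 3 lines.

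Adam12, a membrane metalloprotease that sheds growth factor precursors (chromosome 7, 133883199 to 134225097), had 10, 10.5 and 7.5 regions in the 3 open lines and 0 to 3.5 in the others. With the neighboring D7Ertd443e it held a run of 6 regions from 134144065 to 134366982, where a run links regions no more than 100 kb apart. The strongest, inside Adam12 at 134207790 to 134208657, had pileups of 56, 62, 59 and 78 in the lymph node libraries and 26 and 23 in 1399P1. The groups do not overlap, and the log2 difference of 1399P1 was -1.60.

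The longest run was on chromosome 1, where 7 regions lay between 120817619 and 120964461 with no protein-coding gene among them. The nearest gene is En1, a homeobox factor of hindbrain and limb patterning, 209.6 kb from the run. Their pileups ranged from 8 to 52 in the lymph node libraries and from 5 to 37 in 1399P1. The region at 120929675 to 120930747 was about equal between the lines, with 20, 32, 27 and 35 against 32 and 37, and that at 120848989 to 120849885 was not, with 41, 44, 44 and 52 against 21 and 12. Another region in the same megabase, 43255 bp from En1, had 53, 54, 55 and 43 against 37 and 43. The 10th percentile of local background over this megabase was 1.00 to 1.12 times the floor in 12N1G and N2N1G and 1.01 and 1.04 in 1399P1.

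The next runs held 4 regions each. One lay 30.2 kb from Sox9, a factor of progenitor and cartilage fate, on chromosome 11 between 112817965 and 112938726. Its pileups were 15 to 35 in the lymph node libraries and 8 to 25 in 1399P1. The other lay at Kazn, which encodes a desmosome-linked protein, on chromosome 4 between 142180268 and 142303935. Its strongest region had 36, 36, 28 and 32 in the lymph node libraries and 10 and 12 in 1399P1, and at all 4 both 1399P1 libraries were below all 4 lymph node libraries in centred strength. Background there reached 1.65 times the floor in 12N1G and N2N1G and 2.12 in the closed lines. A run of 3 at Ankrd44, the first by position among those of its size, had 36, 29, 37 and 36 against 13 and 13 at its middle region. In all, 310 regions fell in 139 runs and 1089 stood alone.

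All 4 nuclear factor I genes held at least 1 region, Nfib itself included. At Nfib (chromosome 4, 82290173 to 82506751) the region at 82315786 to 82316649 had pileups of 55, 45, 51 and 53 in the lymph node libraries and 21 and 22 in 1399P1. At Nfix, the region at 84793536 to 84794891 on chromosome 8 had 91, 98, 91 and 105 against 22 and 26, and a second one 14, 17, 28 and 25 against 16 and 9. At Nfic the region at 81424365 to 81425708 on chromosome 10 had 21, 26, 25 and 31 against 21 and 17. In centred strength both 1399P1 libraries were below all 4 lymph node libraries at these 4 regions.

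Nfia (chromosome 4, 97578066 to 98118876) went the other way. Its 6 regions had pileups of 7 to 54 in the lymph node libraries and 43 to 438 in 1399P1, and at each the groups did not overlap. At 97697137 to 97698246 the lymph node libraries had 7, 10, 11 and 8 and 1399P1 had 405 and 305, a log2 difference of 5.08. The whole stretch had raised local background in 1399P1: in 1399P1 the 10th percentile of background was 9.67 to 16.3 times the floor in the megabases from 95 to 98 Mb. It was 1.00 to 1.29 times in 12N1G and N2N1G, and 1.00 to 1.13 times in the other lines where it could be measured. 1399P1 had 82.5 regions with a peak at Nfia, against 34.5 in each lymph node line and 12.5 to 26.5 in the rest. Of the 55 regions higher in 1399P1, 11 lay in this stretch, including the 5 with the largest difference: 2 inside Nfia, 1 that lies 137620 bp from it, and 2 that lie 73122 and 80424 bp from Fggy. Outside it, 44 of 1388 regions were above (3.17%) and 887 (63.9%) below. Copy number was not measured here, and the part of the raised background in these differences was not tested. In megabases without raised background in any line, no region at Nfia remained.

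**Figure D5:**
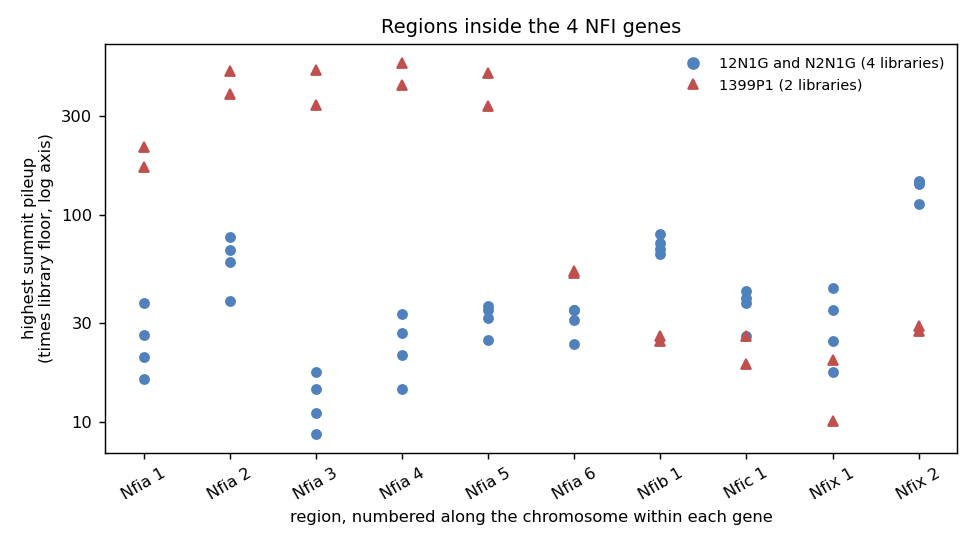
Highest summit pileup in units of the library floor (log axis) for the 10 regions inside Nfia, Nfib, Nfic and Nfix, in the 4 lymph node libraries (circles) and the 2 libraries of 1399P1 (triangles). At the 6 Nfia regions 1399P1 lies above, with pileups of 43 to 438 against 7 to 54, and at Nfib and the Nfix region with pileups of 22 and 26 against 91 to 105 it lies below.

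The largest differences in the opposite direction were at Heyl (14 and 11 in 1399P1 against 141 to 227), Camk2b (17 and 13 against 128 to 170), beyond the end of Lrfn2 (9 and 8 against 53 to 83), near Epb41l3 (7 and 6 against 44 to 50) and near Cdh26 (7 and 14 against 61 to 78). Heyl encodes a Notch-regulated repressor and Camk2b a neuronal calcium-dependent kinase. At the Heyl region the local background itself was 86.5 to 115 times the floor in 12N1G and N2N1G and 2.16 and 2.13 times in 1399P1. At Camk2b it was 15.5 to 19.7 times in the lymph node libraries and 2.56 and 2.37 times in 1399P1. At Lrfn2, Epb41l3 and Cdh26 it was 2.95 to 9.32 times against 1.00 to 1.99 times. The part of local background in these differences was not tested. The 35 regions in megabases of raised background in a lymph node line but not in 1399P1 were below in 32 cases and above in none. The 1347 regions outside raised megabases in these lines were below in 63.3% and above in 3.19%.

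Among gene lists drawn up with earlier results of these data known, synaptic adhesion genes had the largest share after the list with the nuclear factor I genes. Of 28 synaptic adhesion genes, 23 of them at least 200 kb long, 10 had a region (35.7%). Cntnap2, a neuronal cell adhesion gene, and Opcml had 2 each, and Dlg2, Lsamp, Magi1, Magi2, Ntm, Tenm2 and Tenm4 were among those with 1. Of 27 voltage-gated channel genes 6 had one (22.2%), led by Cacna1d with 3, and of 33 neurotransmitter receptor genes 5 (15.2%), among them Gria1, Grik4, Grin2a and Grin3a. Of all genes of at least 200 kb, 24% had one. At Gria1, an AMPA receptor subunit, 12N1G, N2N1G and 1399P1 had 9, 6.5 and 8.5 regions, 1373M1 had 0 and the other lines 1 to 5.5.

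Of 72 developmental transcription factor genes, 7 had a region (9.72%), among them Esrrg with 4, Runx2 and Rora with 2, and Isl1, Runx1 and Sox5 with 1. Of all protein-coding genes 3.87% had one, and of those at least 200 kb long 24%, a length that 21 of the 72 reach. Runx2, the bone lineage factor, had a region with 26, 26, 19 and 25 in the lymph node libraries and 8 in both 1399P1 libraries. Its other region overlapped, with 9, 9, 12 and 23 against 11 and 14. At Rora, a circadian nuclear receptor, the groups likewise overlapped at 1 region (25, 26, 34 and 25 against 30 and 31) and not at the other (27, 29, 32 and 41 against 14 and 14). Collagen, laminin and integrin genes had 4 of 30 (Col12a1, Itga1, Itga9, Lamc1), axon guidance genes 3 of 33 (Efna5, Plxna4, Unc5a), epithelial and mesenchymal genes 2 of 18 (Grhl2, Fn1) and WNT, NOTCH and YAP genes 2 of 37 (Jag1, Nkd1). In the order given, these lists held 6, 16, 1 and 1 genes of at least 200 kb. None of the 20 neuroendocrine and cancer state genes had one, which at this list size is near the 3.87% of all genes. None was found at Myc, Mycl, Mycn, Rb1, Rbl1, Rbl2 or Trp53, nor at the 8 tuft, 12 lung epithelium, 12 hepatocyte, 12 lymphocyte and myeloid or 12 fibroblast and endothelial genes.

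The regions that ranked highest in fold enrichment over the 6 libraries were almost all far from gene ends. The first lay inside Pstpip2, 12388 bp from its end, with pileups of 31, 41, 63 and 43 in the lymph node libraries and 49 and 30 in 1399P1, which overlap. The second lay in a gene desert 665689 bp from Reep3, with 66, 77, 55 and 64 against 20 and 23. Others lay inside Adam12, Nrg1 (the growth factor neuregulin, 54, 59, 60 and 66 against 20 and 17) and Abca13 (77, 72, 79 and 82 against 19 and 21), 698791 bp from Tmem182, 43255 and 313586 bp from En1, 265285 bp from Ncam1 (a neural adhesion molecule and marker of this cancer) and 95131 bp from Rasgef1b. In 8 of these 10, both 1399P1 libraries were below all 4 lymph node libraries in centred strength, beside 63.4% of the 1399 regions and 35.7% of all regions open in the 3 lines. The rank is a mean over 6 libraries, 4 of them from lymph node lines, which favors regions strong there.

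At gene ends the 20 highest-ranked regions followed the same order. In centred strength, both 1399P1 libraries were below all 4 lymph node libraries at 18 of them, above at Aldh1l1, and overlapping at Clec3b. The share below was 63.4% over all 1399 regions and 35.7% over all regions open in the 3 lines. Lymph node libraries supply 4 of the 6 ranks that chose these 20, which favors regions strong in those lines. The Aldh1l1 region, whose promoter sequence is given above, had pileups of 23, 18, 24 and 24 in the lymph node libraries and 46 and 45 in 1399P1. At the Nap1l5 promoter they were 30, 43, 36 and 39 against 24 and 12, at Aox4 20, 20, 14 and 21 against 15 and 13, at Dcaf12l1 20, 25, 20 and 19 against 11 and 16, and at Egfem1 32, 37, 30 and 33 against 16 and 19. The Rxrg promoter had 21, 15, 27 and 21 against 9 and 13. The rest include Mmp14, a matrix metalloprotease of invading cells (47, 46, 37 and 51 against 21 and 9), Grm4, a glutamate receptor (30, 41, 34 and 38 against 19 and 14), Ccl2, a chemokine (32, 33, 22 and 21 against 14 and 16), and Klf15, a Krüppel-like factor (26, 22, 19 and 32 against 17 and 11). The remaining ones were at Aim2 beside Cadm3, Lrrn2, Necab3, Pigq, Tspo2, Card9, Dgkq, Rnf112, Als2cl and Arl8a.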

How the data were processed

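ATAC-seq peak lists of 14 libraries, 2 for each of 7 lines, were used, with 1 list for each library. The submitters' processing notes name MACS2, SAMtools, Picard, Bowtie2 and cutadapt 2.10, and mm10 and GRCm38 as builds. Their settings, the filters on reads and whether reads were moved to the transposase cut are not given in the sources used. The deposited fold enrichment is a ratio of summit to local background, and the deposited lists also hold a −log10 p-value and, for each peak, a −log10 q-value, with a lowest −log10 q of 1.3. The deposited score column entered no result. Most deposited lists carry a human build in their names, but peaks of the 14 libraries overlapped 39.6% to 49.3% of mouse RefSeq promoter windows. Coordinates were therefore read as GRCm38, and positions are printed 1-based.

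Fold enrichment and p-value were solved for the summit pileup and local background under the Poisson model of MACS2; 1194290 of 1194322 pileups were whole within 0.02. The lowest background of a library, its floor, was 0.507 to 1.134 fragments per bp. Strength was log2 of the highest pileup in a region over the floor, minus the library's median over regions open in all 7 lines. A megabase was raised in a line where the 10th percentile of background was at least 2 times the floor in both libraries, with at least 5 summits. Merging, solving and counting were tested on simulated data. No statistical test was run: the rule used the contrast of open with closed lines, and 1399P1 against the lymph node lines has too few libraries for an exact test. Gene extents and promoter sequences came from RefSeq (GRCm38.p6), without exons.

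The regions and gene lists were chosen with earlier results of these data known. Named were the 15 genes with the most regions (ties by symbol), the 10 highest-ranked regions, the 20 highest-ranked at gene ends, list genes with 2 or more, the 5 largest differences per direction, the 3 lowest-ranked regions and the 5 longest runs; Gria1 and Rxrg, and the remaining list genes, were named after their values were seen. A few genes that this rule names are not reported here. Analysis used Python 3.11.15, pandas 2.3.3 and scipy 1.17.1. Alternatives covered peak thresholds, overlap rules, left-out lines and libraries, the strength measure and gene distances. A planned motif search around summits was not run, as no genome sequence was used here.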

Additional observations from a re-analysis of the deposited data

How the results depend on the processing

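With the same number of peaks per library, 220 regions fitted the pattern, with 143 genes, 6.36% at a gene end and a median difference of -0.63. When a peak had to cover at least 50% of a region, an alternative chosen after seeing the data, 877 fitted. The planned overlap rule reduced to a width limit of 1000 bp, since every peak lies within its region. Without 1398P2, 5.21% lay at a gene end, 59.8% were below in 1399P1 and the median difference was -0.73. Without 12N1G that difference was -0.69, and without N2N1G 70.8% were below. Rank percentiles gave 48.7% below. Gene ends of 2 kb gave 6.50%. Local background in 1399P1 had a median of 1.38 times the floor at the regions themselves and 1.04 over their megabases. Leaving out single libraries gave 1400 to 1926 regions, 60.9% to 79.5% below, median differences of -1.08 to -0.78, 3.65% to 4.77% at a gene end and 838 to 1116 genes. The most regions came without library 2 of 1399P1, which also set the largest share below and the largest difference. With equal peak numbers, Nfia, Ankfn1 and Adam12 had 1 region each and Esrrg 0. With 50% cover, Nfia and Esrrg had 2 and Ankfn1 and Adam12 had 3. Nfia had 3 under the width limit, and Adam12 had 2 in the gene body alone. The median difference was negative under all alternatives run for it. No paired analysis was possible because the results come from no test. The search in a window of 100 bases around summits was not run. Depth limits peak calls most in library 2 of 1398P2. Leaving that library out gave 1400 regions, and leaving out library 1 of the same line gave 1573. The first of these counts cannot show what low depth did, since peaks missed in a closed line exclude no region.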
